A study of Mus musculus with 2 samples.

Results

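Mir652, Mir139 and Mir140 are 3 of the 2202 annotated microRNA (miRNA) genes counted in small RNA libraries of newborn mouse heart. They were chosen by name, with their measured levels already known, as abundant miRNA genes that stand alone in an intron of a larger gene. Their levels and the ratio of those levels between the libraries are therefore given as descriptions, with no test. The tissue was whole heart of male mice of the strain B6CASTF1/J, which crosses the inbred lines C57BL/6J and CAST/EiJ, taken 4 days after birth. There was a single untreated group of 2 libraries: replicate 1 came from the animal numbered 3 and replicate 2 from the animal numbered 4. Both carry the same donor identifier, so if they were not separate animals the spread between them is technical. Whole heart mixes heart muscle, vessel, connective tissue and blood cells, and fewer cells of a type cannot be told apart from less RNA per cell.

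A miRNA is cut from a hairpin-shaped precursor, and either arm of the hairpin can be loaded into an Argonaute protein. There, bases 2 to 8 of the mature miRNA, the seed, find matching sites in messenger RNAs, whose translation and stability then fall. miRNAs inside introns are often transcribed together with their host gene. Mir139 lies in Pde2a, the gene of a phosphodiesterase that breaks down cyclic AMP and cyclic GMP. Mir652 lies in Tmem164, which encodes a membrane protein, and blocking miR-652 has been reported to preserve function of the pressure-overloaded mouse heart. Mir140 lies in Wwp2, the gene of a ubiquitin ligase, and is best known as a cartilage miRNA whose loss shortens the mouse skeleton.

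The 5 mature miRNAs listed here for these genes had different seeds. The RefSeq sequences below (build GRCm38.p6, the assembly also called mm10) are shown because the seed decides which messages a miRNA can pair with. Capitals mark the seed, and each sequence runs 5′ to 3′.
miR-652-5p: cAACCCUAggagggggugccauuc
miR-652-3p: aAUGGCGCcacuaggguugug
miR-139-5p: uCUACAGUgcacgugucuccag
miR-139-3p: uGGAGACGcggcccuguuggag
miR-140-3p: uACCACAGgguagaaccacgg
miR-497b: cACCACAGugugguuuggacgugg
The table holds both arms of Mir652 and Mir139 and the 3p arm of Mir140, and miR-140-5p was not used here in any comparison of seeds or first bases. No other mature miRNA among its 1738 entries had the seed of miR-652-5p, miR-652-3p, miR-139-5p or miR-139-3p. A seed with no second owner was found for 71.6% of all entries. The seed of miR-140-3p was shared by 1 other, miR-497b, whose gene Mir497b on chromosome 11 had 0 sense counts in replicate 1 and 1 in replicate 2. The table holds hairpins for 968 of the 2202 counted genes, and among these no other gene with one of the 5 seeds had more than 1 count. Of the 5 mature miRNAs listed for the 3 genes, 3 began with U, 1 with A and 1 with C. Over all entries, 41.3% began with U, 25.5% with A and 20.4% with C.

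The whole hairpins are shown next because the deposited counts are per hairpin, so a read from either arm adds to the same value. Capitals mark the mature miRNAs in the RefSeq table.
Mir652 hairpin: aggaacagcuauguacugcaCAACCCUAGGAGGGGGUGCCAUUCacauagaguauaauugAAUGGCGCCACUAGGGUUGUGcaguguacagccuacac
Mir139 hairpin: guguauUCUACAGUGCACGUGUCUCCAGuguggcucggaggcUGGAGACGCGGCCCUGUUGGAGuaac
Mir140 hairpin: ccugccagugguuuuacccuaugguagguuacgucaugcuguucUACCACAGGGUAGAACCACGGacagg
The hairpins measured 98, 68 and 70 bases for Mir652, Mir139 and Mir140, and the RefSeq and GENCODE M21 positions were identical for each. Mature miR-652-5p took up bases 21 to 44 of its hairpin and miR-652-3p bases 61 to 81. For Mir139 the arms lay at bases 7 to 28 and 43 to 64, and miR-140-3p lay at bases 45 to 65. A shared stretch of 20 bases with any other annotated hairpin was found in 0 of the 79 windows of Mir652, 0 of the 49 of Mir139 and 0 of the 51 of Mir140. Hairpins free of shared windows made up 50.8% of the 2202 annotated genes and 74.9% of the 243 genes with a mean of at least 100 sense counts. Copies elsewhere in the genome were not searched.

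Folded in silico, the Mir140 hairpin was the most completely paired. RNAfold gave a minimum free energy of -39.1 kcal/mol for Mir140, -33.9 kcal/mol for Mir139 and -49.0 kcal/mol for Mir652. Per base these were -0.56, -0.50 and -0.50 kcal/mol, beside a median of -0.43 over the 243 genes (quartiles -0.48 and -0.39). Paired bases made up 85.7% of the Mir140 hairpin, and 0 of the 243 genes had a higher share. They made up 70.6% of the Mir139 hairpin and 69.4% of the Mir652 hairpin, close to the median of 72.1%. Of the 243 genes, 196 had a longer annotated hairpin than Mir140, and the paired share was not adjusted for hairpin length. The GC content was 58.8% for Mir139, 52.9% for Mir140 and 50% for Mir652, and 205 of the 243 genes had a lower GC content than Mir139.

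All 3 genes stood alone in their hosts. Mir652 (ENSMUSG00000076011.1, chrX:142739000-142739097, plus strand, mm10) lay in an intron in 7 of 9 annotated Tmem164 transcripts and outside the other 2. In the longest protein-coding transcript it sat in intron 2, which spans 69090 bases, 56050 bases after the upstream exon. Mir139 (ENSMUSG00000065446.1, chr7:101475376-101475443, plus strand) lay in an intron in 10 of 12 Pde2a transcripts. It sat in intron 2 of the longest, 23907 bases after one exon and 5927 bases before the next. The annotation also places it in intron 3 of Gm45837, a protein-coding gene over nearly the same interval as Pde2a. Mir140 (ENSMUSG00000065439.1, chr8:107551244-107551313, plus strand) lay much closer to exons, in intron 16 of the longest Wwp2 transcript. That intron is 2141 bases long and the hairpin ends 963 bases before the next exon. Of 11 Wwp2 transcripts, 3 held Mir140 in an intron, 1 retained-intron transcript held it in an exon, and 7 did not span it. The nearest other miRNA gene on the same strand was 1558692 bases from Mir652, 405740 from Mir139 and 289643 from Mir140, and 0 miRNA genes lay within 50 kb of any of them. No host gene RNA was measured here.

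Reads were counted on the strand of each hairpin (sense counts). They came to 4196577 in replicate 1 and 3801738 in replicate 2, which were 43.8% and 40.9% of the reads accounted for. Multi-mapped reads, which are assigned to no gene, took 38.1% and 42.3%. Levels are given as CPM, each count scaled to the total of sense counts in its library, per hairpin gene and with no scaling by length. Intervals are 95% Wilson intervals and cover counting error only, since amplified reads are not independent molecules. Errors written ± are SDs over the 2 libraries (n = 2).

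Mir652 was the most abundant of the 3 genes. It had 74432 sense counts in replicate 1, or 17736 CPM (interval 17611 to 17863). In replicate 2 it had 55933 counts, or 14712 CPM (14592 to 14834). The mean was 16224 ± 2138 CPM, 1.62% of sense counts, and Mir652 ranked 14 of 2202 in replicate 1, 17 in replicate 2 and 16 by the mean. Replicate 1 was thus the higher library, by 1.21-fold, and the SD came to 13.2% of the mean.

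Mir139 followed directly at rank 17. It had 66201 sense counts in replicate 1, or 15775 CPM (15656 to 15895), and 54257 in replicate 2, or 14272 CPM (14153 to 14391). The mean was 15023 ± 1063 CPM, 1.5% of sense counts. In CPM the libraries were closer than for Mir652, with an SD of 7.08% of the mean, and replicate 1 was again the higher, by 1.11-fold. Which of the pair was closer depended on the scaling, as given below. Mir139 stood below Mir652 in both libraries, at 0.889 times its count in replicate 1 (0.880 to 0.899) and 0.970 times in replicate 2 (0.959 to 0.982). The order of the pair was thus the same in each library, although the gap between their means was smaller than the SD of Mir652 across libraries.

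Mir140 was lower and far less even. It had 5093 sense counts in replicate 1, or 1214 CPM (1181 to 1247), and 23467 in replicate 2, or 6173 CPM (6094 to 6252). Replicate 2 was the higher library by 5.09-fold (4.93 to 5.24 for counting error). The mean of 3693 ± 3507 CPM therefore describes neither library well. Mir140 ranked 72 in replicate 1 and 28 in replicate 2, and 42 by the mean.

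**Figure D1:**
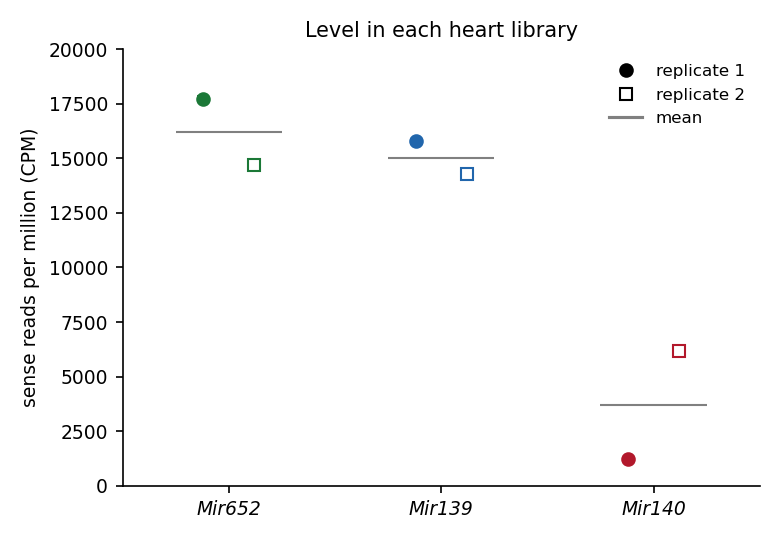
Level of Mir652, Mir139 and Mir140 in CPM (vertical axis) in each library; filled circles are replicate 1, open squares replicate 2, grey lines the mean, and 95% Wilson intervals are smaller than the symbols. Mir652 and Mir139 lie between 14272 and 17736 CPM in both libraries, and Mir140 lies at 1214 and 6173 CPM.

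Because Mir652 and Mir139 stayed close while Mir140 did not, the proportions among the 3 genes differed between the libraries. Mir652 exceeded Mir140 by 14.6-fold in replicate 1 (14.2 to 15.0) and by 2.38-fold in replicate 2 (2.35 to 2.42). Mir139 exceeded Mir140 by 13.0-fold (12.6 to 13.4) and 2.31-fold (2.28 to 2.35). On the log2 scale the mean ratio of Mir139 to Mir140 was 2.45 ± 1.76, and that of Mir139 to Mir652 was -0.11 ± 0.09. Ratios within a library do not depend on its total, but their spread would not reveal a bias between miRNAs in ligation or amplification that both libraries share. The 3 genes together held 3.47% of sense counts in replicate 1 and 3.52% in replicate 2.

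The ratios between the libraries were set beside those of the 243 genes with a mean of at least 100 sense counts. The log2 ratio, replicate 2 over replicate 1, was computed from CPM + 1. Its median over these genes was -0.22 (quartiles -0.71 and 0.21), so most genes were lower in replicate 2 on this scale. Over 2-fold apart in either direction were 41 genes (16.9%), with 9 (3.70%) higher and 32 (13.2%) lower in replicate 2. That split moved to 15 higher and 24 lower with TMM scaling, a trimmed mean of M-values, and to 20 and 21 with DESeq2 size factors. Since the members were picked with these ratios known, nothing is read from their count against this background.

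Of the 3 members, 1 was over 2-fold apart. The log2 ratio of Mir140 was 2.35, or 2.57 above the median of the 243 genes, and 2 genes, Mir140 included, reached a ratio this high. The other was Mir26a-1, with 7.63 and 83.6 CPM. Counting both directions, 7 genes lay at least as far from 0 as Mir140. Mir652 had a log2 ratio of -0.27, which is -0.05 relative to the median, and Mir139 had -0.14, or 0.08 relative to it. Mir139 and Mir652 therefore lay near the middle of the distribution, with 217 and 223 of 243 genes at least as far from the median. Measured from 0, 203 and 165 of 243 genes lay at least as far. The sign of these small ratios depended on the scaling. TMM scaling gave -0.025 for Mir652 and 0.10 for Mir139, so the sign changed for Mir139 only. DESeq2 size factors gave 0.043 and 0.17, so it changed for both. By either scaling the Mir652 ratio was the smaller in size, the reverse of the order in CPM. Mir140 stayed at 2.59 and 2.66.

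**Figure D2:**
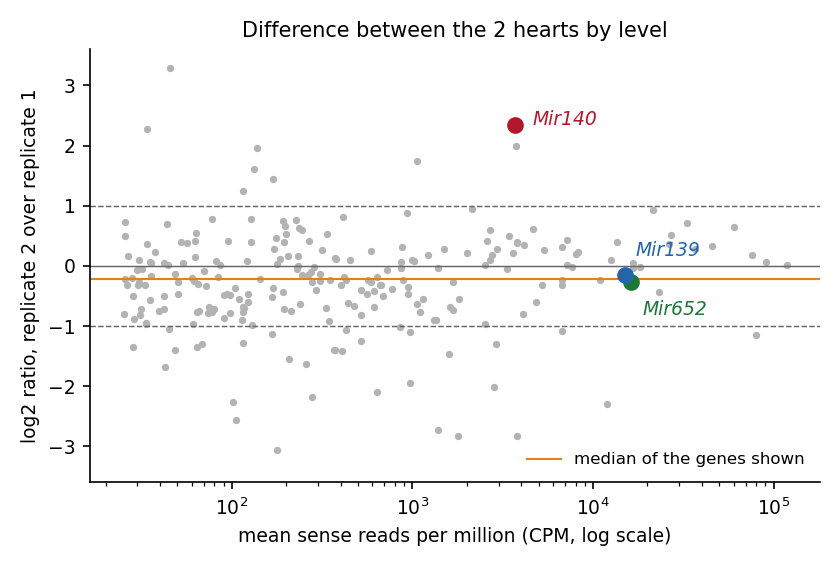
Log2 ratio of replicate 2 over replicate 1 (vertical axis) against mean level in CPM (horizontal axis, log scale) for the 243 genes with a mean of at least 100 sense counts; each point is a gene, dashed lines mark 2-fold and the orange line is the median of -0.22. Mir139 and Mir652 lie close to the median, and Mir140 lies at 2.35, above the upper dashed line.

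The opposite strand of these hairpins gave no reads. Antisense counts, which played no part in the choice of the genes, were 0 for Mir652, Mir139 and Mir140 in both libraries. A count of 0 allows an antisense level of up to 0.0040% of the sense counts for Mir652 in replicate 1 and 0.0054% in replicate 2, taking 3 counts as the limit. For Mir139 these limits were 0.0045% and 0.0055%, and for Mir140 0.059% and 0.013%. Antisense counts were 0 in both libraries for 220 of the 243 genes (90.5%), so this is the usual state. Counts taken without regard to strand equalled the sense counts for all 3 genes, as for 210 of the 243 (86.4%), so none of their reads was ambiguous with a gene on the other strand.

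Few genes were as high as Mir652 and Mir139 among hairpins of the same kind. Of the 2202 genes, 761 lay inside a protein-coding gene on the same strand with no other miRNA gene within 10 kb on that strand. Of these, 72 had a mean of at least 100 sense counts, with a median of 251 CPM, beside 284 CPM over all 243 genes. The most abundant were Mir378a in Ppargc1b at 117818 ± 1208 CPM, Mir126a in Egfl7 at 79265 ± 42334 CPM and Mirlet7g in Wdr82 at 75736 ± 6475 CPM. Mir335 in the imprinted gene Mest, at 33265 ± 11368 CPM, and Mir26b in the phosphatase gene Ctdsp1, at 27083 ± 6632 CPM, came next. Mir652 and Mir139 took places 6 and 7, and Mir140 took place 16. Of the 72 genes, 3 were over 2-fold higher and 8 over 2-fold lower in replicate 2, with a median log2 ratio of -0.27. Over all 243 genes, which include the 72, 9 (3.70%) were higher and 32 (13.2%) lower, with a median of -0.22, so these ratios were much alike. Of the rest, 37 lay in such a host but not alone, with a median of 413 CPM. The other 134 had no such host, with a median of 295 CPM. The 761 solitary genes held 47.8% of sense counts in replicate 1 and 43.6% in replicate 2. The members belong to these 72, and the class gives their setting and not a test.

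**Figure D3:**
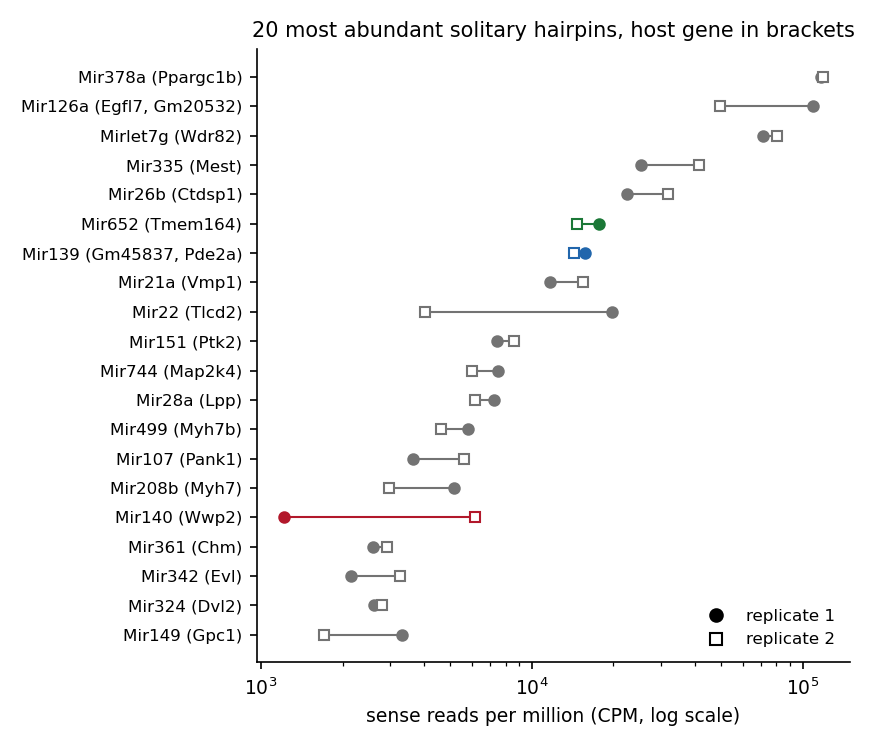
Level in CPM (horizontal axis, log scale) of the 20 most abundant miRNA genes that lie alone in a protein-coding host, named with the host in brackets; filled circles are replicate 1 and open squares replicate 2. Mir652 and Mir139 stand at places 6 and 7 with short lines between the libraries, and Mir140 at place 16 spans 1214 to 6173 CPM.

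The genes with the most similar levels were found by the distance between log2(CPM + 1) values over the 2 libraries. For Mir139 the nearest was Mir30a on chromosome 1, at a distance of 0.03, with 15554 and 14063 CPM in replicates 1 and 2. Next came Mir652 at 0.17 and Mirlet7d, of the let-7 family, at 0.21 with 16752 and 16328 CPM. For Mir652 the order was Mirlet7d at 0.17, Mir139 at 0.17 and Mir30a at 0.20. The means of Mirlet7d (16540 ± 300 CPM), Mir652, Mir139 and Mir30a (14809 ± 1055 CPM) held ranks 15 to 18, and the means of each neighbouring pair differed by less than the larger SD of the pair across libraries, which does not use the pairing of values within a library. With 2 libraries a match says only that both levels were alike.

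Mir140 had a single near match. Mir145a, a smooth muscle miRNA on chromosome 18, had 1501 CPM in replicate 1 and 5998 CPM in replicate 2, at a distance of 0.31. It also stood directly above Mir140 by mean level, at 3750 ± 3180 CPM. The next nearest genes were much farther, with Mir100 at 1.17 (1462 and 2800 CPM) and Mir342 in Evl at 1.24 (2154 and 3251 CPM). Directly below Mir140 by mean level was Mirlet7f-2, whose levels of 3326 and 3864 CPM were far closer to each other. The means of Mir145a, Mir140 and Mirlet7f-2 differed by less than the SD of Mir140.

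Marker miRNAs of cell types were read beside the Mir140 ratio. Heart muscle was represented by the myosin-intron miRNAs Mir499 (5794 and 4633 CPM), Mir208b (5169 and 2965 CPM) and Mir208a (2091 and 1259 CPM), so the tissue label was met in both libraries. The 7 heart muscle genes summed to 13094 and 8924 CPM. Over 2-fold apart were 0 of the 4 with a mean of at least 100 counts, beside 16.9% of the 243 genes. Mir1a-1, Mir133a-1 and Mir133a-2 had at most 29 counts in a library, and Mir1a-2 had 33.1 and 54.4 CPM. Since multi-mapped reads are assigned to no gene, these low counts alone do not show that the mature miRNAs were scarce.

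The smooth muscle and pericyte genes had more reads in replicate 2, as Mir140 did. They summed to 48576 CPM in replicate 1 and 79469 CPM in replicate 2, mostly from Mir143. Mir145a, with a log2 ratio of 2.00, was 1 of the 2 genes of this list with enough counts and was over 2-fold higher, as were 3.70% of the 243 genes. Its partner Mir143, on the same chromosome, had 47075 and 73470 CPM, a log2 ratio of 0.64, and Mir145b had 0 and 4 counts. The multi-mapped share was also higher in replicate 2, at 42.3% against 38.1%. The part of either in the Mir140 ratio was not tested.

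The cartilage and skeletal mesenchyme genes, the setting in which Mir140 is best known, went the other way as a sum. They held 7637 CPM in replicate 1 and 1929 CPM in replicate 2. Mir214 alone had 6683 and 941 CPM, and without it the list was not lower in replicate 2. Mir455, a cartilage miRNA within a collagen gene, was level at 847 and 887 CPM. Mir199b had 64.3 and 56.0 CPM, Mir199a-2 had 33.4 and 23.4 CPM, Mir675 had 38 and 82 counts, and Mir199a-1 had 0 counts in both. Any multi-mapped reads of these genes are left out, so low counts do not show low levels of the mature miRNAs. Of the 4 genes of this list with enough counts, 0 were over 2-fold higher in replicate 2 and 1 was over 2-fold lower. The shares over the 243 genes were 3.70% and 13.2%, so nothing is read from counts among 4 genes. The part of cartilage or skeletal cells in the Mir140 ratio was not tested beyond these values.

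The remaining lists held 0 genes over 2-fold higher in replicate 2 among those with a mean of at least 100 counts. Genes with that mean numbered 3 for endothelium, 5 for white blood cells, 3 for red blood cells, 1 for liver and 0 for neurons. Over all 243 genes 3.70% were over 2-fold higher, so 0 among so few genes says little. Endothelial genes summed to 109519 and 49773 CPM, almost all from Mir126a, with log2 ratios of -1.15 for Mir126a, 0.53 for Mir221 and 0.02 for Mir222, and 3 and 0 counts for Mir126b. White blood cell genes summed to 2219 and 2139 CPM, with log2 ratios from -0.31 for Mir146 and -0.24 for Mir155 to 0.39 for Mir223, 0.41 for Mir150 and 0.63 for Mir142. Red blood cell genes summed to 493 and 400.3 CPM, with Mir451a at 234 CPM in each library, Mir486 at 142 and 103 CPM, Mir144 at 117 and 63.7 CPM, and Mir451b at 0 counts. The liver miRNA Mir122 had 309 and 105 CPM. Of the 6 neuron genes, 4 (Mir124a-1, Mir124a-2, Mir124a-3 and Mir9-2) had 0 counts in both libraries, Mir9-1 had 0 and 2, and Mir9-3 had 1 and 82. With multi-mapped reads left out, 0 counts for a gene do not show that its mature miRNA was absent.

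**Figure D4:**
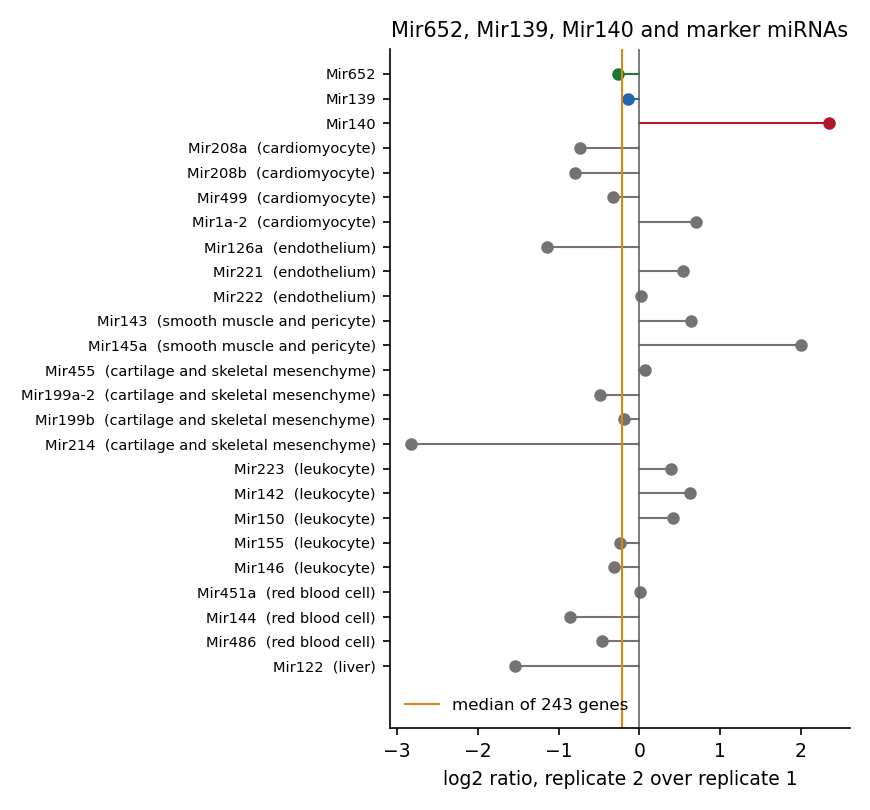
Log2 ratio of replicate 2 over replicate 1 (horizontal axis) for Mir652, Mir139 and Mir140 (coloured) and for the marker miRNAs with a mean of at least 100 sense counts (grey, cell type in brackets); the orange line is the median of the 243 genes. Mir140 at 2.35 and Mir145a at 2.00 lie farthest to the right, and Mir214 at -2.83 farthest to the left.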

How the data were processed

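Each library has a deposited table of raw counts for miRNA genes, made on mm10 with annotation M21 of GENCODE, as the accompanying text files state. The aligner is not given in the sources used here, and reads of CAST alleles that differ from mm10 may be lost. Column 3 was taken as sense counts. Lines for unmapped (14.1% and 13.1% of reads), multi-mapped, unassigned (4.01% and 3.70%) and ambiguous reads were kept out of library totals. All gene IDs matched GENCODE M21.

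CPM, ranks, ratios and Wilson intervals were computed with Python 3.11.15 (numpy 2.4.6). The ratio step was run on simulated counts with known folds and counting error only. That checks its arithmetic and not the spread between the libraries. A single read was worth 0.238 CPM in replicate 1 and 0.263 CPM in replicate 2. TMM factors came from edgeR 4.0.16 and size factors from DESeq2 1.42.0, over 441 genes with at least 10 counts. Hairpins were folded with RNAfold 2.7.2. No p-value was computed: 1 group with 2 libraries has no contrast, and the members and marker lists were chosen with earlier results of these data known. Genes named besides these are those nearest in level, next in rank, sharing a seed, or among the 5 most abundant solitary hairpins. Mir26a-1 was named after its values were seen.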

Additional observations from a re-analysis of the deposited data

How the results depend on the processing

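Counts without regard to strand, which drop genes that overlap on opposite strands from the total, raised the mean of Mir652 to 21219 CPM and of Mir139 to 19616 CPM and moved Mir139 to rank 15. Over all reads accounted for, the means were 6890 and 6370 CPM. The log2 ratios of Mir652, Mir139 and Mir140 became -0.38, -0.26 and 2.23 without regard to strand, -0.025, 0.10 and 2.59 with TMM scaling, 0.043, 0.17 and 2.66 with DESeq2 size factors, and -0.37, -0.24 and 2.25 over all reads. Mir140 thus stayed over 2-fold higher in replicate 2 in all 4, and Mir139 changed sign in 2 and Mir652 in 1 of them. Pseudocounts of 0.5 and 10 CPM moved no ratio beyond its counting interval. From single libraries the means ran from 14712 to 17736 CPM for Mir652, from 14272 to 15775 for Mir139 and from 1214 to 6173 for Mir140. The ranks ran from 14 to 17, from 17 to 18 and from 28 to 72. The number of genes over 2-fold apart was 69 of 372 with a count minimum of 10 and 100 of 668 with a minimum of 1. It was 99 of 243 past 1.5-fold and 20 of 243 past 3-fold. With no other miRNA gene within 50 kb the solitary class had a median of 225 CPM. A ratio between libraries cannot be recomputed without one of them. No paired analysis was possible because there is a single group. Depth limits the genes with few counts, and with 2 libraries the spread itself is poorly known.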

Other observations

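Among the 20 most abundant miRNA genes that lie alone in a protein-coding host, Mir140 had the highest log2 ratio of replicate 2 over replicate 1 and Mir22, in Tlcd2, the lowest at -2.29. The Mir140 ratio was known when the gene was chosen, so nothing is read from its place. Mir140 is among the 20 through replicate 2. In replicate 1 its 1214 CPM lay below Mir208a (2091 CPM), which is outside the 20. Mir22 was picked out after its values were seen. It had 19704 CPM in replicate 1 and 4030 CPM in replicate 2, so it stood above Mir140 in replicate 1 and below it in replicate 2. Mir652 and Mir139 lay between Mir22 and Mir140 in replicate 1 and above both in replicate 2.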
